A study of Mus musculus with 12 samples.

Results

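Transcripts of the oxidative phosphorylation machinery were followed through 4 stages of the mouse basophil lineage. The members were the genes whose symbols begin with Nduf followed by a, b, c, s or v, with Uqcr, with Cox4 to Cox8 or with Atp5, the Sdha to Sdhd genes, and the mitochondrially encoded genes mt-Nd, mt-Co, mt-Atp and mt-Cytb. Of the 32227 genes in the count table, 119 had such a name, 12 of them ended in -ps and were left out, and 107 remained, 94 encoded in the nucleus and 13 in the mitochondrial genome. All 13 mitochondrial and 88 of the 94 nuclear members passed the filter on low counts and were tested among 15083 genes. The names also took in 8 Ndufaf genes, whose products assemble complex I and are not part of it, and 4 genes that the annotation calls processed pseudogenes (Cox6c2, Ndufa11b, Ndufb4c and Ndufs6b), and both kinds are counted among the nuclear members. Cox7a2l, a paralog of the complex IV subunit gene Cox7a2, is counted with complex IV.

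Oxidative phosphorylation passes electrons from NADH and succinate along complexes I to IV of the inner mitochondrial membrane to oxygen, and the proton gradient this builds drives complex V, the ATP synthase. Complexes I, III, IV and V are assembled from nuclear-encoded subunits imported from the cytosol and from a few core subunits made inside the mitochondrion, whereas complex II is encoded by nuclear genes alone. Supply of the nuclear and mitochondrial parts therefore rests on separate transcription systems.

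Cells were sorted from C57BL/6J WT mice into 4 groups of 3 libraries, each library pooled from 4 animals. Bone marrow (BM) gave 3 of them, the progenitors (BaPs, which are CD34+), the pre-basophils (which are CD34- and were sorted as CLEC12A-high CD9-low cells) and the mature basophils (sorted as CLEC12A-low CD9-high cells), and the spleen gave a further group of mature basophils. The sort used the proteins of Clec12a, Cd9, Cd34, Cd200r3 and Kit, none of which is a member. Polyadenylated RNA was amplified as cDNA and sequenced, and the table held read counts per gene with library totals from 3596108 to 8151030.

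Levels are given as CPM, a count relative to the library size after edgeR's TMM scaling, unless a share of raw counts is named. Differences are log2 fold changes with their standard error (SE) from edgeR's quasi-likelihood model of all 12 libraries, and a gene was called at a Benjamini-Hochberg adjusted p under 0.05 over all 15083 tested genes. All 9 basophil markers were detected in every group, with a summed level of 25061 to 67686 CPM in BaPs, 60952 to 69710 in pre-basophils, 10850 to 13569 in BM mature and 5462 to 6183 in spleen mature basophils. In pre-basophils the protease genes Prss34 (49580, 42580 and 43260 CPM) and Mcpt8 (12340, 10890 and 12450 CPM) made up most of that sum. Both, and Fcer1a, Ms4a2, Cpa3 and Il3ra, were lower in BM mature basophils than in pre-basophils. Cd200r3, Gata2 and Itga2 were higher there without overlap, with Itga2 at 83.3, 97.6 and 72.9 CPM in pre-basophils and 157, 201 and 161 in BM mature basophils. Of 5 mast cell markers 3 were in the table and summed to at most 5.62 CPM in any library. BaP replicate 3 stood apart from the other BaP libraries. Its basophil markers gave the lowest BaP sum, 25061 CPM, with Prss34, a basophil protease gene, at 17010 CPM against 48650 and 45400 in the other BaP libraries. Its erythroid markers summed to 2494 CPM against a lowest BaP value of 51.8, and its B cell, T and NK cell, monocyte and neutrophil sums (239, 976, 331 and 2670 CPM) were each the highest of the BaP libraries. The part of these markers in the results was not tested. Its mitochondrial members took a larger share of counts, so results that rest on it are also given without it. The 6 libraries with totals over 6000000 counts were the third replicate of each marrow group and all 3 spleen libraries, so that in the spleen this split and the tissue cannot be fully told apart. In bulk libraries fewer cells of a type and less RNA per cell cannot be told apart either.

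The windows upstream of 4 nuclear members are shown because their genes were called in different comparisons or directions, given below, and all 4 windows hold the same short motif. Of the 94 nuclear members, 74 matched the RefSeq promoter table (GRCm38.p6). The 250 bases before each annotated start were searched on both strands for GCATGCGC, the core bound by nuclear respiratory factor 1 (NRF1), a regulator of respiratory chain genes, and for CCGGAAG, a core of ETS family sites. GCATGCGC stood in 9 of 79 member windows (11.4%) and in 741 of 32851 windows of all genes (2.26%), and CCGGAAG in 14 of 79 (17.7%) and 2269 of 32851 (6.91%). In the sequences below, written 5′ to 3′ on the strand of the gene and ending at the base before the start, capitals mark GCATGCGC or its reverse complement. Where 10 capitals stand together, the core and its reverse complement overlap. Starts are those of the RefSeq table and can differ from the gene positions given below. For Ndufa8 the marked core lies inside the gene as placed by those positions.
Ndufaf4, plus strand, chr4:24897833-24898082: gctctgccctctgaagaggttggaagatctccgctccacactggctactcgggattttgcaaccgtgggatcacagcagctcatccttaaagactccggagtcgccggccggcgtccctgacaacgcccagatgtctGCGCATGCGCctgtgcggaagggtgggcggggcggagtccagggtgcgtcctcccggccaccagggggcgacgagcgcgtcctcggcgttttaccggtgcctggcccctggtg
Ndufa8, minus strand, chr2:36049339-36049588: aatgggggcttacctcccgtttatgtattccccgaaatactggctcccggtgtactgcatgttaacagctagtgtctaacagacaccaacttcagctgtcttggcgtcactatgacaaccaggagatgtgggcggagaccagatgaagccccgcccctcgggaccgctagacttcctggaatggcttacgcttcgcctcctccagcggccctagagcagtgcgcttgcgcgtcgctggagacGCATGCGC
Atp5k, minus strand, chr5:108434400-108434649: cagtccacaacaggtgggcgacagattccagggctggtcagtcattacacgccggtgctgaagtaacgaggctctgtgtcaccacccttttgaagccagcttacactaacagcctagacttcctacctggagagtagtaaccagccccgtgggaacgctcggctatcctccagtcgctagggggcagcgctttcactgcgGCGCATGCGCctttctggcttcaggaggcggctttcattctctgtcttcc
Ndufa6, minus strand, chr15:82354292-82354541: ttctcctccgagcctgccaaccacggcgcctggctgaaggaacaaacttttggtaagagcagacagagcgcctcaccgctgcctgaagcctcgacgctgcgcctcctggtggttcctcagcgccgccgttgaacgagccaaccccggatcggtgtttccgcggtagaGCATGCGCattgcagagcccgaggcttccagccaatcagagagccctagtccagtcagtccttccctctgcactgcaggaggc
The core was present upstream of genes that were higher and of genes that were lower in pre-basophils than in BM mature basophils, as described below. Among members with a window and a test it stood before the RefSeq start of 5 of 36 that were higher, 1 of 3 that were lower and 3 of 34 that were not called in that comparison. These matches describe the letters of the windows and nothing was read from them about binding.

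The summed share of oxidative phosphorylation transcripts was highest in the progenitors and lowest in the spleen. Nuclear members made up 0.982%, 0.954% and 0.919% of the counts of the BaP libraries and 0.831%, 0.780% and 0.784% of those of the pre-basophil libraries. The BM mature libraries held 0.563%, 0.584% and 0.521% and the spleen libraries 0.552%, 0.533% and 0.513%. BaPs, pre-basophils and mature cells did not overlap in this share, and the mature groups did overlap. Mitochondrial members took 1.61%, 1.64% and 3.10% of BaP counts, 1.49%, 1.34% and 1.36% of pre-basophil counts, 0.972%, 1.02% and 1.04% of BM mature counts and 0.896%, 0.80% and 0.713% of spleen counts, and here no 2 groups overlapped. After TMM scaling the summed nuclear level was 7127 to 9077 CPM in BaPs and 7403 to 8350 in pre-basophils, which overlapped, against 6173 to 6705 in BM mature and 5549 to 5610 in spleen mature basophils, which did not.

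**Figure D1:**
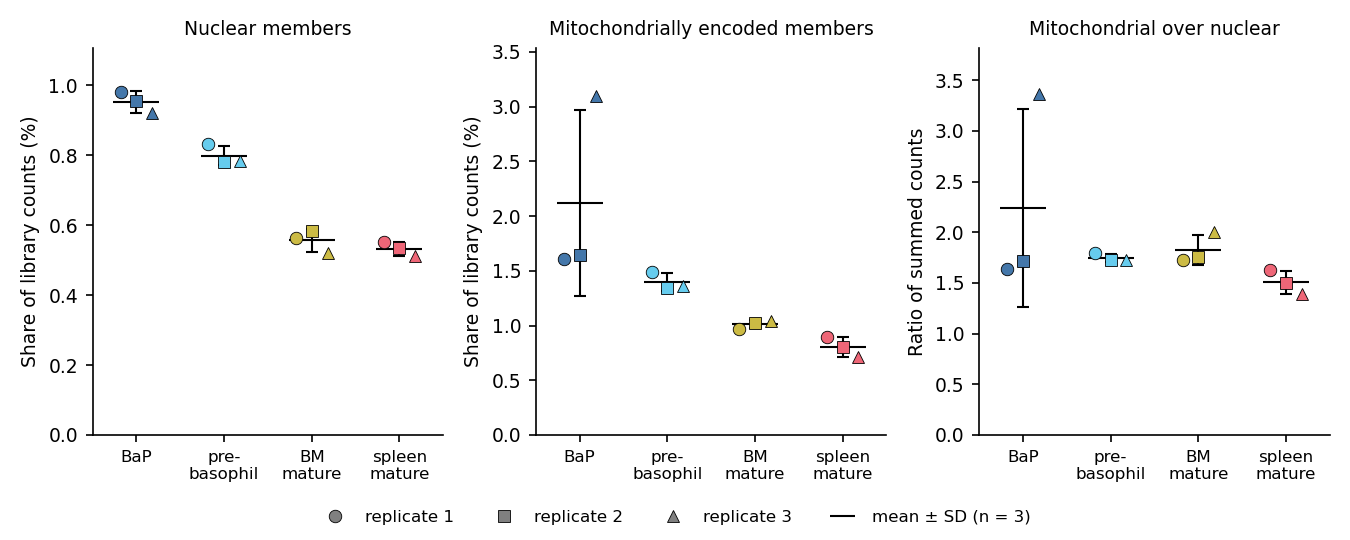
Share of each library's raw counts (%) taken by the 94 nuclear members (left) and the 13 mitochondrially encoded members (middle), and the ratio of the summed counts (right), by group, with 1 symbol per library and the mean ± SD of 3 libraries. The nuclear share steps down from 0.919% or more in BaPs to 0.584% or less in mature cells, and BaP replicate 3 lies apart with 3.10% mitochondrial counts and a ratio of 3.37.

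Mitochondrial counts exceeded nuclear counts in every library. Their ratio was 1.64 and 1.72 in BaP replicates 1 and 2, 1.72 to 1.79 in pre-basophils, 1.73 to 2.0 in BM mature and 1.39 to 1.62 in spleen mature basophils. BaP replicate 3 had a ratio of 3.37. In that library the difference from the mean of the other BaP libraries had a median of -0.29 log2 units over the nuclear members and 0.74 over the mitochondrial ones, against 0.00 for all tested genes. The mitochondrial genes spread from mt-Atp8, at 0.882 times the mean of the other libraries, to mt-Nd6, which encodes a complex I subunit on the light strand, at 2.33 times that mean. The same difference had a median of -0.19 over all tested genes shorter than 750 bases and 0.04 over longer ones, and of -0.42 and -0.21 over short and long nuclear members.

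Per kilobase of transcript and averaged over the groups, mt-Co1, the catalytic subunit of cytochrome c oxidase (complex IV), was the most abundant member at 2813 CPM per kb. It was followed by mt-Co3 at 2587 and mt-Atp6 at 2131, and the lowest mitochondrial level was that of mt-Nd6 at 25.0. These are levels in libraries of polyadenylated RNA, and how fully each message was captured was not tested. Among nuclear members the highest of each complex were Cox4i1, a structural subunit of complex IV, at 575 CPM per kb, Uqcrh, the hinge protein of complex III, at 476, Ndufa6, an accessory subunit of complex I, at 435, Atp5g3, a gene for the c-ring of ATP synthase, at 406, and Sdhb, the iron-sulfur subunit of complex II, at 58.0. Ndufaf8 was the highest of the assembly factors at 34.4 CPM per kb. Lengths were the lower median of the basic protein-coding transcripts in GENCODE M21, and the nuclear members were short, with a median of 659 bases against 2120 for all tested genes with a length.

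Differences among the 4 groups passed the F test for 66 of 88 nuclear members and 13 of 13 mitochondrial members, against 57.8% of all tested genes. By role these were 28 of 36 complex I subunits, 3 of 4 of complex II, 8 of 8 nuclear subunits of complex III, 11 of 13 of complex IV, 12 of 17 of complex V, 3 of 8 assembly factors and 1 of 2 pseudogenes. In 44 nuclear members all 6 BaP and pre-basophil libraries lay above all 6 mature libraries, where 16.7% of tested genes did so, and in 3 they lay below, where 11.6% did. The mitochondrial genes gave 7 of 13 above and 0 below.

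BaPs were compared with pre-basophils to describe the step at which CD34 is lost. The nuclear subunits differed little between these stages. Of 88 nuclear members tested, 1 was higher in BaPs, where 2.79% of all tested genes were, and 0 were lower, where 4.29% were, at an adjusted p under 0.05 in edgeR. At an unadjusted p under 0.05 the counts were 6 and 0, but the share of all tested genes at that threshold was not counted. DESeq2 called 2 higher and 0 lower, beside 438 and 730 of all 15083 tested genes. The median log2 difference of the nuclear members was 0.07, against 0.02 for all genes. When libraries were scaled by their totals alone, the median of all genes moved to 0.23 and that of the nuclear members to 0.27, with 10 nuclear members higher and 0 lower. Of all 15083 tested genes 1290 were then higher and 330 lower.

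The nuclear member called was Ndufaf4 (ENSMUSG00000028261.13, GRCm38 chromosome 4, 24898083 to 24905001), a complex I assembly factor. It measured 9.32, 12 and 15.1 CPM in BaPs, 6.15, 5.60 and 4.32 in the pre-basophil libraries, 2.86, 2.75 and 3.0 in BM mature and 3.68, 3.63 and 3.45 in spleen mature basophils. Each marrow stage lay below the one before it without overlap. Ndufaf4 was 2.32-fold higher in BaPs than in pre-basophils (log2 1.21, SE 0.24, adjusted p = 0.0095), and without pre-basophil replicate 3 it was no longer called (log2 1.06, adjusted p = 0.064). The other 7 assembly factors were not called here. A fit with the replicate number as a block called 4 nuclear members higher, among them Atp5g1 (0.57, adjusted p = 0.036 against 0.065 without the block), beside 571 higher of all tested genes. Without BaP replicate 3 the count was 7, among them Atp5g1 (0.77, adjusted p = 0.0028) and Uqcrq (0.89, adjusted p = 0.0021), and without pre-basophil replicate 3 it was 0. Higher calls over all tested genes went from 421 of 15083 to 879 of 14723 and 100 of 14951 in the same fits.

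All 13 mitochondrial members had a positive log2 difference between BaPs and pre-basophils, under every scaling tried, with a median of 0.43. Of the 13, 1 was called higher in edgeR, where 2.79% of all tested genes were. mt-Nd5, a core subunit of complex I, measured 526, 521 and 905 CPM in BaPs and 432, 374 and 367 in the pre-basophil libraries, and the groups did not overlap. It was 1.67-fold higher in BaPs (0.74, SE 0.20, adjusted p = 0.044). The difference rested on BaP replicate 3, the library with the lowest basophil and highest erythroid marker sums of its group, without which it was 0.43 (adjusted p = 0.0546). It also missed the threshold without any 1 pre-basophil or BM mature library, or without spleen replicate 1 or 2, with adjusted p from 0.0547 to 0.156. The median over the 13 genes lay between 0.17 and 0.56 when single libraries were left out.

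The step from pre-basophils to BM mature basophils held most of the differences. Of 88 nuclear members, 42 were higher in pre-basophils, where 16.3% of all tested genes were, and 3 were lower, where 11.0% were. The other 43 were not called, the median log2 difference was 0.44, against 0.00 for all genes, and 79 of the 88 were above 0. The range ran from -0.64 to 1.90. By role 21 of 36 complex I subunits rose and 1 fell, 2 of 4 of complex II rose, 3 of 8 nuclear complex III subunits rose and 1 fell, 6 of 13 genes counted with complex IV rose and 1 (Cox7a2l) fell, and 9 of 17 of complex V rose, all in the sense of higher or lower in pre-basophils. Of the 8 assembly factors 1 rose, Ndufaf4 (0.87, SE 0.28, adjusted p = 0.031), whose call was lost with DESeq2 (adjusted p = 0.098), without the filter, and without pre-basophil replicate 1 or 2 or any 1 BM mature library (adjusted p from 0.07 to 0.102). The 2 tested pseudogenes were not called.

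**Figure D2:**
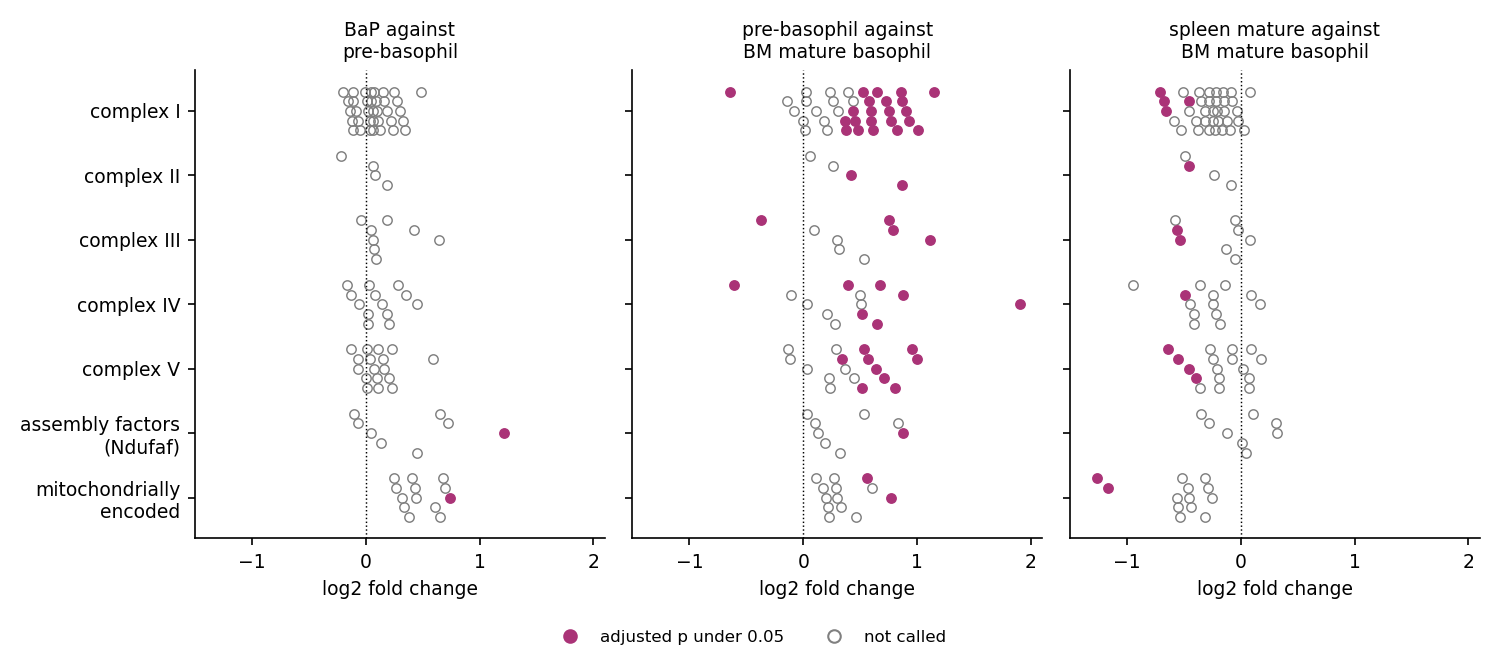
Log2 fold changes (horizontal axis, edgeR) of the tested members in the 3 comparisons, by complex for nuclear subunits, with the Ndufaf assembly factors and the 13 mitochondrially encoded genes below. Each point is 1 gene (the 2 tested pseudogenes are not drawn), filled where the adjusted p was under 0.05, and vertical scatter within a row has no meaning. The middle panel holds 42 filled nuclear points to the right of 0 and 3 to the left, and all mitochondrial points lie right of 0 in the first 2 panels and left of 0 in the third.

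Cox6b2 (ENSMUSG00000051811.14, chromosome 7, 4751792 to 4753094), which encodes an isoform of complex IV subunit 6B best known from testis, had the largest difference of the nuclear members. It measured 14.6, 17.2 and 7.26 CPM in BaPs, 12.3, 9.01 and 8.80 in the pre-basophil libraries, 1.91, 2.0 and 3.74 in BM mature and 1.28, 1.65 and 1.20 in spleen mature basophils. Early and mature libraries did not overlap. The difference between pre-basophils and BM mature basophils was 3.74-fold (1.90, SE 0.37, adjusted p = 0.0019). It rests on low counts, 6, 8 and 20 in the BM mature libraries. The widely expressed isoform Cox6b1 measured 93.4, 81.6 and 82.4 CPM in pre-basophils and 86.6, 73.1 and 53.2 in the BM mature libraries, which overlapped, and was not called (0.28, SE 0.17, adjusted p = 0.24). Per kilobase Cox6b1 averaged 211 CPM against 15.5 for Cox6b2.

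Uqcrq (ENSMUSG00000044894.14, chromosome 11, 53427922 to 53430831), a small subunit of complex III, measured 132, 124 and 71.3 CPM in BaPs, 81.1, 65.2 and 62.5 in the pre-basophil libraries, 42.6, 31.5 and 23.2 in BM mature and 27.5, 31.2 and 34.4 in spleen mature basophils. It was 2.16-fold higher in pre-basophils than in BM mature basophils (1.11, SE 0.24, adjusted p = 0.0039). Ndufc2 (ENSMUSG00000030647.8, chromosome 7, 97400003 to 97407802), a membrane-arm accessory subunit of complex I, measured 48.1, 36.0 and 44.0 CPM in pre-basophils and 20.4, 18.8 and 24.1 in the BM mature libraries. Its difference was 2.01-fold (1.01, SE 0.17, adjusted p = 0.00072). Neither gene overlapped between these groups, and both kept their call without any 1 library.

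Complex V showed the change in some subunits of its catalytic head and of its membrane ring, and 8 of its 17 genes were not called. Atp5c1 (150, 158 and 158 CPM in pre-basophils against 158, 147 and 150 in BM mature) and Atp5d (190, 211 and 202 against 219, 229 and 205) overlapped between the groups. Atp5g3 (ENSMUSG00000018770.9, chromosome 2, 73908447 to 73911326) measured 459, 418 and 367 CPM in BaPs, 383, 355 and 373 in the pre-basophil libraries, 235, 220 and 227 in BM mature and 137, 161 and 140 in spleen mature basophils. The pre-basophil and BM mature libraries were far apart relative to their spread (0.71, SE 0.11, adjusted p = 0.00041). Its paralog Atp5g1, which encodes the same mature c-subunit, was also higher in pre-basophils (62.1, 56.2 and 50.2 against 35.6, 36.8 and 24.3 CPM, 0.81, SE 0.19, adjusted p = 0.0059). The third paralog, Atp5g2, did not pass (97.3, 89.3 and 96.0 against 78.0, 78.1 and 83.5 CPM, 0.24, SE 0.10, adjusted p = 0.11), although its groups did not overlap. Atp5a1, the alpha subunit of the catalytic head, was 1.56-fold higher in pre-basophils (0.64, SE 0.11, adjusted p = 0.00066). Atp5h, a stalk subunit, showed 0.34 (SE 0.12, adjusted p = 0.047). It lost this call under RLE scaling, with DESeq2, without the filter and without any 1 spleen library, BM mature replicate 1 or 2, pre-basophil replicate 1 or 3 or BaP replicate 2, with adjusted p from 0.058 to 0.182. Atp5k, subunit e of the membrane part, had 15.4, 7.79 and 8.48 CPM in pre-basophils and 5.41, 6.26 and 4.12 in the BM mature libraries (0.996, SE 0.34, adjusted p = 0.044). That call rested largely on pre-basophil replicate 1, without which the difference was 0.64 (adjusted p = 0.23), and it was also lost under RLE scaling and without BaP replicate 2, pre-basophil replicate 3, any BM mature library, or spleen replicate 1 or 3 (adjusted p from 0.0501 to 0.161).

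The subunits of complex II, which carries electrons from succinate, did not move alike. Sdhc, a membrane anchor, measured 52.3, 47.5 and 57.6 CPM in pre-basophils and 27.4, 27.0 and 31.4 in the BM mature libraries, a 1.83-fold difference (0.87, SE 0.16, adjusted p = 0.0011). Sdhd, the other anchor, was 1.34-fold higher (0.42, SE 0.12, adjusted p = 0.015), a call that was lost without the filter (adjusted p = 0.083) or on leaving out the first pre-basophil library or either of the first 2 BM mature libraries (adjusted p from 0.0524 to 0.0567). Sdha, the flavoprotein that oxidises succinate, measured 76.6, 59.4 and 70.2 against 61.4, 68.1 and 68.1 CPM, which overlapped (0.06, SE 0.12, adjusted p = 0.76). Sdhb lay at 76.9, 76.4 and 80.1 against 69.1, 65.4 and 60.1 CPM without overlap and was not called (0.27, SE 0.12, adjusted p = 0.11).

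Against this direction, 3 nuclear members were lower in pre-basophils. Ndufa6 (ENSMUSG00000022450.6, chromosome 15, 82350140 to 82354322), an accessory subunit of complex I, measured 117, 131 and 110 CPM in BaPs, 146, 130 and 135 in the pre-basophil libraries, 240, 207 and 196 in BM mature and 213, 199 and 168 in spleen mature basophils. All early libraries lay below all mature ones. The difference between pre-basophils and BM mature basophils was -0.64 (SE 0.12, adjusted p = 0.0017). Cox7a2l (ENSMUSG00000024248.14, chromosome 17, 83501918 to 83517330), a paralog of the complex IV subunit gene Cox7a2, measured 196, 188 and 219 CPM in pre-basophils, 307, 291 and 322 in BM mature and 321, 322 and 338 in spleen mature basophils (-0.61, SE 0.11, adjusted p = 0.00090, pre-basophil against BM mature). Ndufa6 and Cox7a2l stayed called and lower without any 1 library and under every scaling tried, with -0.42 and -0.39 when libraries were scaled by their totals alone. Uqcrh (ENSMUSG00000063882.12, chromosome 4, 116066965 to 116075071) measured 184, 168 and 165 against 237, 210 and 221 CPM (-0.37, SE 0.10, adjusted p = 0.018). It stayed below 0 under every scaling, but was not called when libraries were scaled by totals alone (-0.15, adjusted p = 0.36), with DEGES scaling (-0.28, adjusted p = 0.083), without the filter (adjusted p = 0.092), or on leaving out BM mature replicate 1 or either of pre-basophil replicates 2 and 3 (adjusted p from 0.071 to 0.0767).

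**Figure D3:**
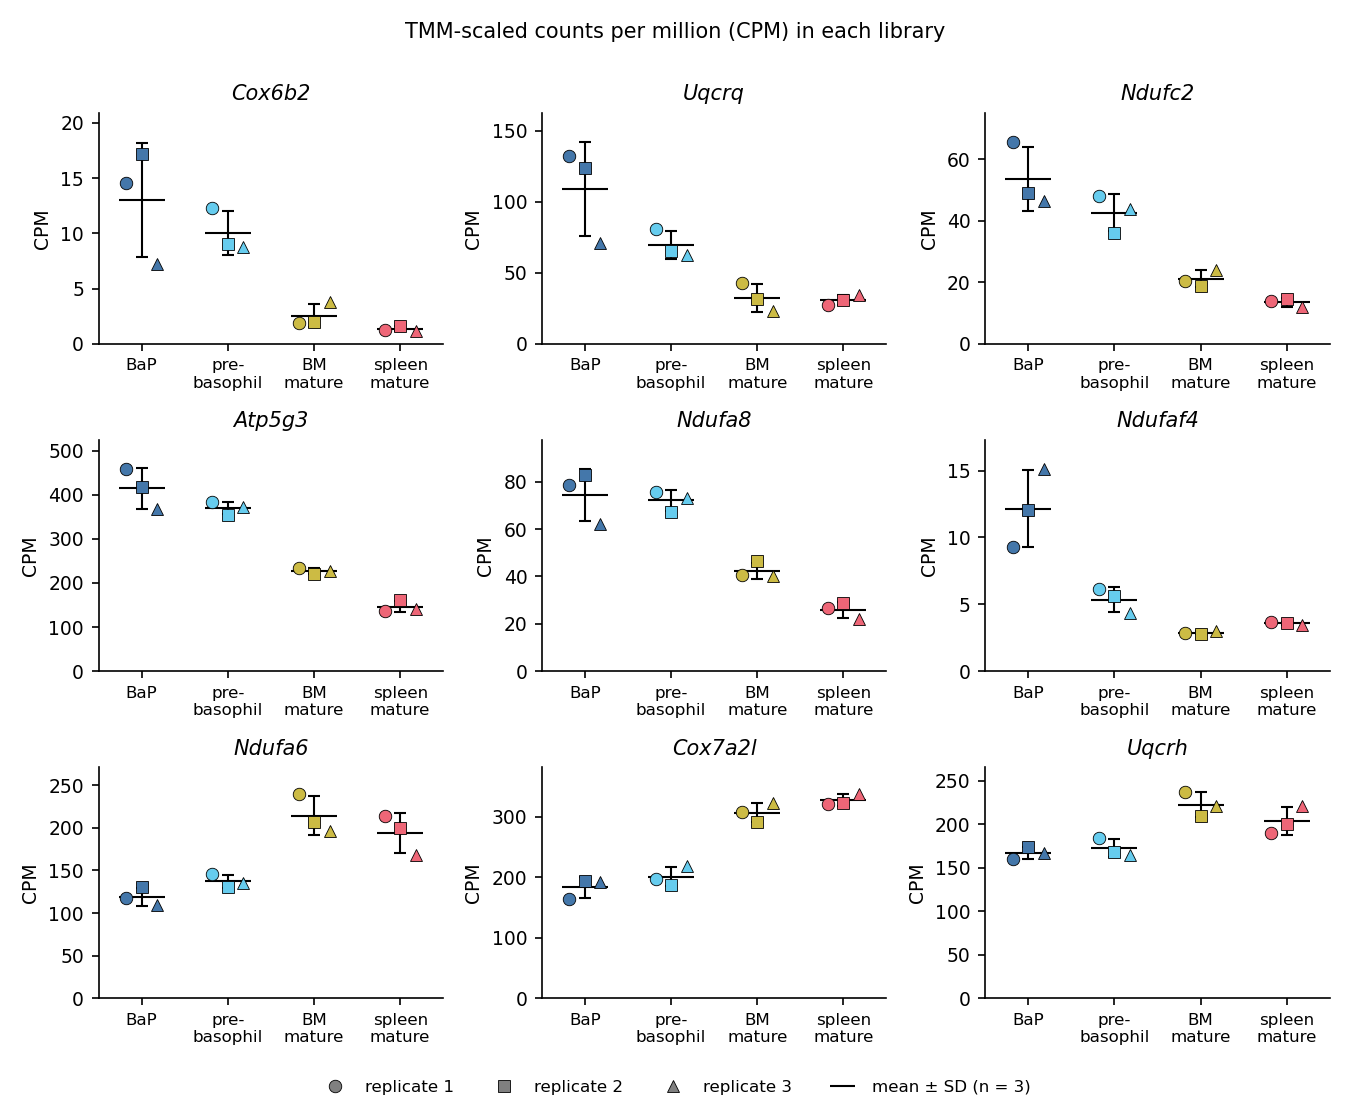
TMM-scaled CPM (vertical axes, from 0) of 9 nuclear members in each library by group, with the mean ± SD of 3 libraries. Cox6b2, Uqcrq, Ndufc2, Atp5g3 and Ndufa8 are higher in both early groups than in mature basophils, Ndufaf4 is highest in BaPs, and Ndufa6, Cox7a2l and Uqcrh are higher in mature basophils.

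Paralogs that replace each other between tissues differed mainly in whether they were expressed. Cox4i1 (373, 366 and 491 CPM in pre-basophils against 373, 417 and 531 in mature marrow cells) did not pass the test (-0.10, SE 0.15), and its hypoxia-linked paralog Cox4i2 had 1 count over all libraries. The heart and muscle isoforms Cox6a2 and Cox7a1 and the paralog Ndufa4l2 were likewise too low to test, with at most 26, 6 and 2 counts in a library. Cox6a1 was higher in pre-basophils (0.40, SE 0.13, adjusted p = 0.039), but was not called under RLE scaling, with DESeq2, without pre-basophil replicate 1 or 3 or without any 1 mature library (adjusted p from 0.0507 to 0.152). Ndufa4, counted with complex IV where its product resides, measured 167, 124 and 141 against 95.8, 74.1 and 65.3 CPM (0.88, SE 0.20, adjusted p = 0.0056). Cox8a (0.03, SE 0.15) was not called, and Cox7a2 (0.51, SE 0.20, adjusted p = 0.076) was called when the replicate number was a block (0.51, adjusted p = 0.023).

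For the mitochondrial genome at this step, all 13 log2 differences were above 0, under every scaling tried, with a median of 0.29. Of the 13, 2 were called higher, a share (15.4%) near the 16.3% of all tested genes. mt-Nd1 measured 858, 676 and 708 CPM in pre-basophils and 514, 506 and 496 in the BM mature libraries (0.56, SE 0.19, adjusted p = 0.044). mt-Nd5 measured 432, 374 and 367 against 230, 221 and 238 CPM (0.77, SE 0.21, adjusted p = 0.013). Both encode complex I subunits, and neither overlapped between the groups. mt-Co1 lay at 4986, 4196 and 4699 CPM in pre-basophils and 3897, 3932 and 4491 in the BM mature libraries, which overlapped (0.17, SE 0.18, adjusted p = 0.52). Without BaP replicate 3 the count was 4, beside 2921 higher among 14723 tested genes. mt-Nd1 was lost without any 1 pre-basophil, BM mature or spleen library (adjusted p from 0.052 to 0.167) and mt-Nd5 without pre-basophil replicate 1 (0.69, adjusted p = 0.056), so the count was 0 without pre-basophil replicate 1 and 1 without any other of these libraries.

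For the nuclear members the count of 45 fell to 28 without pre-basophil replicate 1 and to 29 without BM mature replicate 3, and 25 of the 45 were called whichever library was left out. Calls over all tested genes fell too, from 2460 higher and 1652 lower of 15083 to 1761 and 1070 of 16380 without pre-basophil replicate 1. Without BM mature replicate 3 they were 1818 and 1234 of 14977. Scaling by library totals alone called 64 nuclear members higher and 2 lower, beside 3703 and 784 of all 15083 tested genes. The medians of the nuclear, mitochondrial and all tested genes became 0.66, 0.51 and 0.22.

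Several marker lists of other cells and of division differed between the same groups. The 10 neutrophil markers, all in the table and all above 0 in each group, summed to 1970 to 2670 CPM in BaPs, 1007 to 2390 in pre-basophils, 112 to 158 in BM mature and 68.2 to 75.8 in spleen mature basophils. In BaP replicates 1 and 2 Mpo, a gene of granule-forming myeloid progenitors too, made up most of that sum, at 1792 and 1402 CPM. In BaP replicate 3 Mpo was at 562 CPM, below S100a9 at 605, with Ngp at 401 and S100a8 at 370. The 10 proliferation markers summed to 1338 to 2466, 1593 to 1992, 249 to 329 and 123 to 146 CPM in the same order, with 0 of the 10 at 0. The 8 T and NK cell markers summed to 339 to 976, 209 to 235, 83.1 to 124 and 80.7 to 85.0 CPM. The step from pre-basophils to BM mature basophils in this sum was that of 1 gene, Nkg7, which encodes a granule protein of cytotoxic cells, at 219, 190 and 203 against 62.7, 58.8 and 77.3 CPM. Cd3g, a chain of the T cell receptor complex, was at most 0.480 CPM in pre-basophils and at 1.59, 1.75 and 3.93 CPM in the BM mature libraries. The 6 monocyte and macrophage markers summed to 60.7 to 331, 42.8 to 156, 21.3 to 33.5 and 39.7 to 47.2 CPM, with Lyz2 the largest part in pre-basophils at 33.0, 60.1 and 136 CPM. The 8 erythroid markers were higher in the mature marrow cells, at 74.9 to 87.9 CPM in pre-basophils and 201 to 217 in the BM mature libraries, and spanned 57.9 to 268 CPM in the spleen. The 5 megakaryocyte markers lay at 408 to 452 CPM in BaPs, 507 to 592 in pre-basophils, 574 to 649 in BM mature and 671 to 1007 in spleen mature basophils, and their pre-basophil and BM mature ranges overlapped. Itga2b made up most of that sum, at 497, 545 and 583 against 518, 536 and 576 CPM. Pf4, Ppbp and Gp9 were lower in pre-basophils without overlap, with Ppbp at 0.559, 0.243 and 3.68 against 11.5, 11.0 and 10.3 CPM, and Gp1bb overlapped. The part of these marker lists in the nuclear and mitochondrial differences was not tested.

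Genes that work beside the complexes were counted for the same step, in which 16.3% of all tested genes were higher and 11.0% lower. Of 78 mitochondrial ribosomal protein genes, which serve translation of the 13 mitochondrially encoded members, 45 were higher in pre-basophils and 2 lower, with a median of 0.66. The 2 lower ones were Mrpl47 (-1.70, SE 0.23, adjusted p = 0.00013) and Mrps35 (-0.68, SE 0.15, adjusted p = 0.0037). Of 20 genes for electron carriers, with Cyc1, 8 were higher and 2 lower. Cycs, which encodes cytochrome c, stood at a mean of 40.6 CPM in pre-basophils and 18.1 in the BM mature libraries (1.16, SE 0.17, adjusted p = 0.00021), and the lower ones were the coenzyme Q kinases Coq8a (-1.12, SE 0.27) and Coq8b (-0.56, SE 0.15). Of 17 tricarboxylic acid cycle genes 7 were higher and 1 lower, of 12 carriers and porins 4 and 1, and of 41 assembly factors outside the naming rule 7 and 0, the last a share higher near that of all genes.

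Among 25 genes for mitochondrial DNA, transcription and transcript stability 5 were higher in pre-basophils and 1 was lower, near the 16.3% higher of all tested genes. The 5 included Tfam, which packages and transcribes mitochondrial DNA, at a mean of 20.7 against 10.3 CPM (1.02, SE 0.24, adjusted p = 0.0056). Of 12 regulators of mitochondrial biogenesis 2 were higher and 1 lower, again near the shares of all genes. The higher ones were Hif1a (0.96, SE 0.14, adjusted p = 0.00024) and Gabpb1 (0.75, SE 0.19, adjusted p = 0.010). Nrf1, which encodes the factor that binds the motif shown above, was not called at a mean of 33.6 against 34.5 CPM (-0.04, SE 0.12), whereas Esrra, a nuclear receptor that acts on respiratory genes, was lower in pre-basophils (28.4 against 49.3 CPM, -0.80, SE 0.14, adjusted p = 0.00088). Atpif1, the inhibitor of ATP synthase hydrolysis, falls outside the naming rule and was higher in pre-basophils, with 91.7, 71.3 and 70.8 against 38.8, 36.1 and 25.1 CPM (1.23, SE 0.23, adjusted p = 0.0012).

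The spleen and BM mature groups were compared to describe mature basophils of separate tissues, and this comparison shares its BM libraries with the one above. Of 88 nuclear members 0 were higher in the spleen, where 3.16% of all tested genes were, and 12 were lower, where 4.67% were. At an unadjusted p under 0.05 in edgeR the counts were 0 and 24, but the share of all tested genes at that threshold was not counted. DESeq2 called 0 and 13, beside 459 and 814 of all 15083 tested genes. The median log2 difference was -0.22, against 0.01 for all genes, and 72 of 88 lay below 0 (58 with library totals alone, and 72 to 76 under the other scalings). Those called were 4 of 36 complex I subunits, 1 of 4 of complex II, 2 of 8 of complex III, 1 of 13 of complex IV and 4 of 17 of complex V. Scaling by library totals alone left 5 called, beside 428 lower of all 15083 tested genes, with medians of -0.08 for the nuclear members and 0.14 for all genes.

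Of the 12 nuclear calls, that of Atp5g3 alone held without any 1 library. Its spleen libraries, at 137, 161 and 140 CPM, lay below the BM mature libraries at 235, 220 and 227 (-0.63, SE 0.11, adjusted p = 0.0065). Ndufa8 (ENSMUSG00000026895.7, chromosome 2, 36036326 to 36049406), an accessory subunit of complex I, measured 26.6, 28.9 and 22 against 40.4, 46.3 and 40.1 CPM (-0.71, SE 0.15, adjusted p = 0.013). Ndufa8 was also higher in pre-basophils, at 75.7, 67.4 and 73.1 CPM, than in BM mature basophils (0.77, SE 0.14, adjusted p = 0.0013). Its spleen difference was not called without BM mature replicate 2 (adjusted p = 0.057) or spleen replicate 3 (adjusted p = 0.071). Ndufb8, another accessory subunit of complex I, stood at 35.7, 31.7 and 38.2 against 54.4, 59.6 and 54.8 CPM (-0.68, SE 0.14, adjusted p = 0.016). Atp5g2 measured 61.0, 54.5 and 59.9 against 78.0, 78.1 and 83.5 CPM (-0.45, SE 0.10, adjusted p = 0.021), whereas Atp5g1 overlapped between the tissues (-0.08, SE 0.19).

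The other 8 genes called lower in the spleen were Ndufc2 (-0.66), Ndufv2 (-0.46), Sdhd (-0.46), Atp5a1 (-0.40) and, named after their values were seen, Uqcrc2 (-0.53), Uqcrfs1 (-0.56), Cox5a (-0.49) and Atp5pb (-0.55). The 12 genes called did not overlap between the tissues. They were picked by their calls, and the share of all tested genes without overlap was not counted. The number of nuclear calls depended on single libraries. It was 2 without BM mature replicate 1, 3 without BM mature replicate 2, 4 without BM mature replicate 3, 3 without spleen replicate 2, 2 without spleen replicate 3 and 20 without BaP replicate 3. Lower calls over all tested genes moved too, from 704 of 15083 to 183 of 16402 without BM mature replicate 1 and 157 of 14891 without spleen replicate 3. Without BaP replicate 3 they were 1477 of 14723. With a term for library totals over 6000000 counts the member count was 3 of the 12, among them Atp5g3 (-0.58, adjusted p = 0.024) and Ndufa8 (-0.61, adjusted p = 0.049). Of all 15083 tested genes 322 were lower in that fit.

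All 13 mitochondrial members lay below 0 in the spleen under every scaling tried, with a median of -0.46. Of the 13, 2 were called lower, where 4.67% of all tested genes were. mt-Nd4l, a small core subunit of complex I (mitochondrial genome, 9877 to 10173), measured 145, 114 and 102 CPM in the spleen and 327, 226 and 260 in BM mature basophils, a 2.25-fold difference (-1.17, SE 0.19, adjusted p = 0.0051). mt-Atp8, a small membrane subunit of ATP synthase (7766 to 7969), measured 187, 151 and 125 against 442, 402 and 266 CPM (-1.26, SE 0.25, adjusted p = 0.012). Neither overlapped between the tissues. mt-Nd4l kept its call without any 1 library, and mt-Atp8 lost it without BM mature replicate 1 (-1.13, adjusted p = 0.059) or spleen replicate 3 (-1.12, adjusted p = 0.072). mt-Co3, at 1442, 1360 and 1306 against 1867, 1774 and 2014 CPM, missed the threshold (-0.46, SE 0.14, adjusted p = 0.060) and passed it with the replicate block (-0.46, adjusted p = 0.041). Without BaP replicate 3 the count was 10 of 13, and mt-Co1 and mt-Co3 were then called at -0.51 and -0.46. In that fit 1477 of 14723 tested genes were lower in the spleen.

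**Figure D4:**
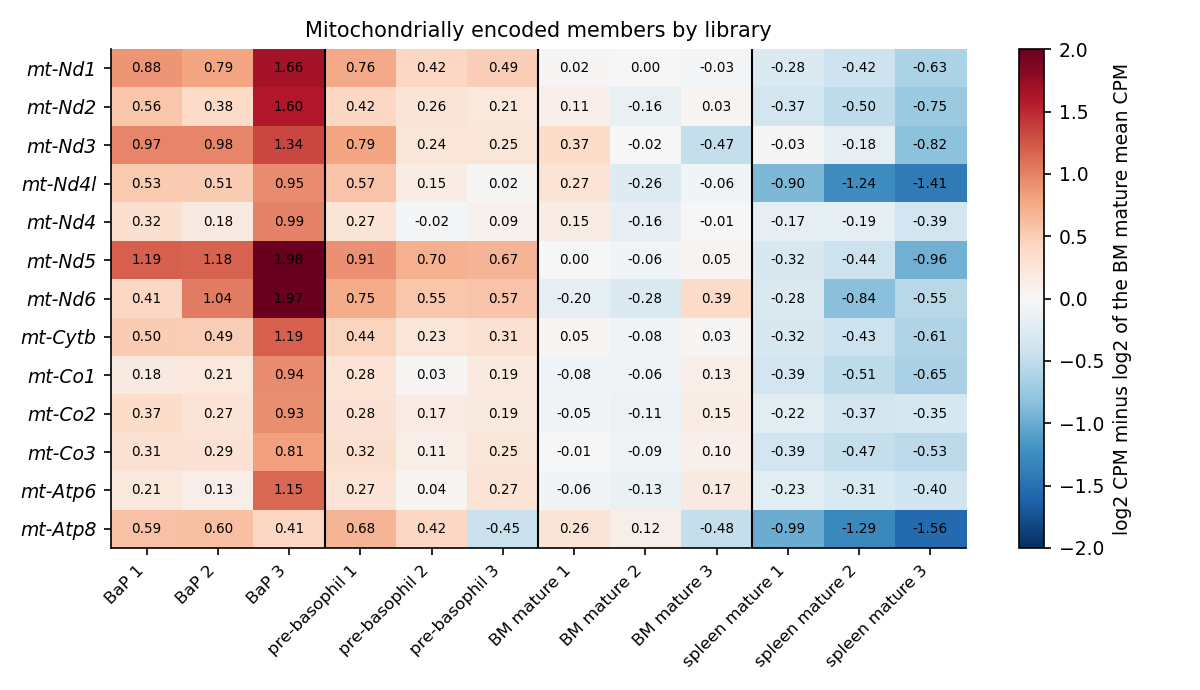
Level of the 13 mitochondrially encoded members in each library, as log2 CPM minus the log2 of the BM mature mean (colour and printed value), with libraries in columns by group. BaP replicate 3 is the highest column for all genes except mt-Atp8, and the spleen columns reach -1.41 for mt-Nd4l and -1.56 for mt-Atp8.

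Both called genes are short and their annotations overlap a longer neighbour on the same strand, mt-Nd4l with mt-Nd4 (10167 to 11544) and mt-Atp8 with mt-Atp6 (7927 to 8607), so reads at the joint may be counted for either. Whether either gene changed apart from its neighbour in the RNA, or through where reads fell and were assigned, was not tested. The ratio of mt-Atp8 to mt-Atp6 counts was 0.368 and 0.391 in BaP replicates 1 and 2, 0.377 and 0.369 in the first pre-basophil libraries and 0.352 and 0.338 in the first BM mature libraries. In the third replicates it was 0.170, 0.172 and 0.181. The spleen libraries had 0.168, 0.144 and 0.127. The ratio therefore separated the 6 libraries over 6000000 counts from the 6 others without overlap, across tissues and stages. With a term for that split the mt-Atp8 difference was -0.83 (adjusted p = 0.033).

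The ratio of mt-Nd4l to mt-Nd4 behaved differently. It was 0.480 to 0.648 in all 9 marrow libraries, with 0.499, 0.493 and 0.498 in the third replicates, and 0.313, 0.249 and 0.254 in the spleen. Every spleen library lay below every marrow library, those over 6000000 counts included. With the same term the mt-Nd4l difference was -1.17 (adjusted p = 0.011), the median of the 13 genes was -0.62, and 4 were called, mt-Nd4l, mt-Atp8, mt-Co1 (-0.73, adjusted p = 0.032) and mt-Co3 (-0.62, adjusted p = 0.030). In that fit the effect of the split comes from the marrow libraries alone, since no spleen library had a smaller total.

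**Figure D5:**
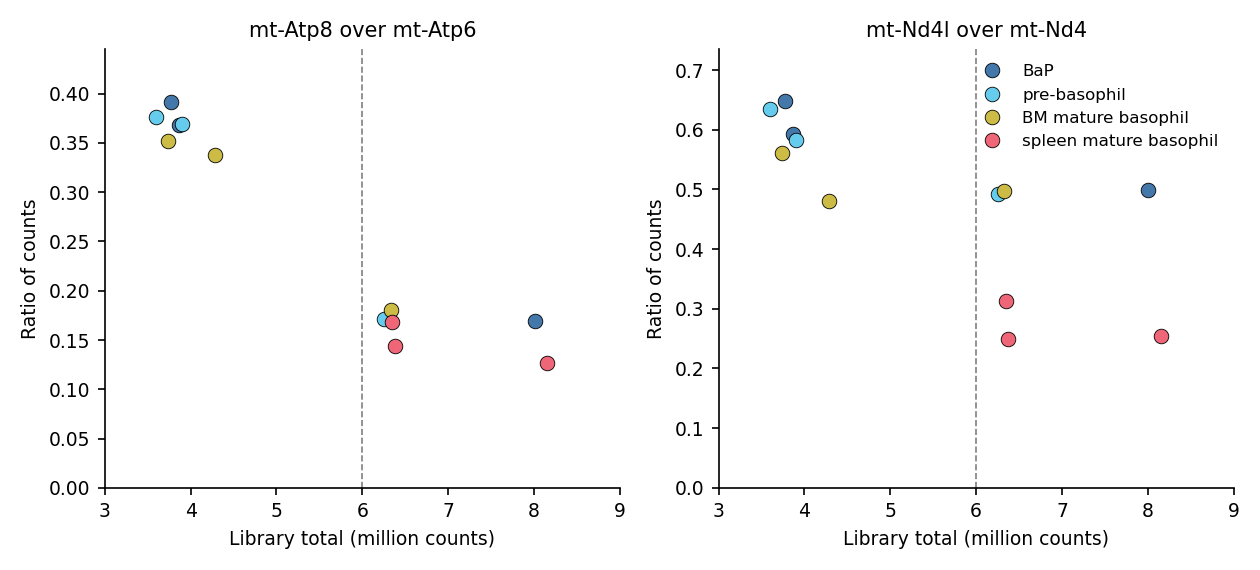
Ratio of counts of mt-Atp8 to mt-Atp6 (left) and of mt-Nd4l to mt-Nd4 (right) against the library total, with 1 point per library coloured by group and a dashed line at 6000000 counts. On the left every library past the line lies at 0.181 or below whatever its group, and on the right the spleen libraries alone lie at 0.313 or below.

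The 8 B cell markers summed to 391 to 655 CPM in the spleen libraries and 55.8 to 80.3 in BM mature basophils, with 0 of 8 at 0 in either group. Their part in the differences between tissues was not tested. Differences also varied with transcript length. The difference of spleen from BM mature basophils had a median of -0.11 over 2226 tested genes shorter than 750 bases and 0.03 over 12598 longer ones, and among nuclear members it was -0.23 for 51 short and -0.18 for 36 long genes. For pre-basophils against BM mature basophils the medians were 0.06 and -0.01 over all tested genes, and 0.50 and 0.34 over the nuclear members.

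Beside the members, 4 of 12 carriers and porins were lower in the spleen and 0 were higher, beside 4.67% lower and 3.16% higher among all tested genes. They were Mpc1 and Mpc2, which form the pyruvate carrier (-0.81 and -0.60, adjusted p = 0.015 and 0.046), Vdac2, an outer membrane porin (-0.81, adjusted p = 0.0089), and Ucp2, an inner membrane carrier (-0.43, adjusted p = 0.027). Of the 78 mitochondrial ribosomal protein genes edgeR and DESeq2 called 0 in either direction between the tissues, with a median of -0.13 and 3 higher and 8 lower at an unadjusted p under 0.05. The share of all tested genes at that unadjusted threshold was not counted. Of the 17 tricarboxylic acid cycle genes 1 was lower, Idh3b (-0.66, SE 0.10, adjusted p = 0.0044), a subunit of isocitrate dehydrogenase, and 0 were higher. Of the 20 genes for electron carriers, with Cyc1, 0 were called by edgeR or DESeq2 and 0 had an unadjusted p under 0.05. Of the 41 assembly factors outside the naming rule 1 was lower, Cmc1 (-1.07, SE 0.18, adjusted p = 0.0055), and 0 were higher.

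Other genes were higher in the spleen. Among the 25 genes for mitochondrial DNA, transcription and transcript stability 2 were higher and 0 lower, with a median of 0.24. They were Polg2, the accessory subunit of the mitochondrial DNA polymerase (1.39, SE 0.30, adjusted p = 0.015), and Elac2, which trims mitochondrial transfer RNAs (0.90, SE 0.25, adjusted p = 0.047). Of the 12 regulators of mitochondrial biogenesis 2 were higher, Myc (1.66, SE 0.19, adjusted p = 0.00075) and Nfe2l1 (0.56, SE 0.14, adjusted p = 0.029), and 1 was lower, Hif1a (-0.50, SE 0.14, adjusted p = 0.047).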

How the data were processed

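The 12 mouse libraries were grouped by their sample titles. The values deposited are raw counts of reads, which the authors obtained by trimming with Cutadapt 3.4, mapping with Bowtie2 2.4.2 and counting. The methods name GRCm38 (release 101) transcripts as the reference and the submitters' processing notes name GRCm39. Strand use, treatment of reads matching several genes and molecular identifiers are not given in the sources used here. Genes with processed copies or overlapping neighbours are therefore uncertain, and precision from counts covers counting error only. Every sample column was mapped (0 left over).

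With edgeR 4.0.16 in R 4.3.3, low genes were removed (filterByExpr, minimum count 10), TMM factors (trimmed mean of M values) scaled the libraries, and all genes left were fitted over the 12 libraries with a coefficient per group. The quasi-likelihood F test was used at a Benjamini-Hochberg adjusted p of 0.05, and the script was tested on simulated counts. Libraries are pools of animals, so p-values measure the spread between pools. The members, the pathway and marker lists and the rule for named genes were chosen with earlier results of these data known. The rule took all mitochondrial members, the called nuclear members with the 4 largest and 4 smallest log2 differences of each comparison (no overlap, at least 10 CPM in the higher group), the most abundant member of each role per kilobase, the complex II subunits and tissue paralogs. Genes of the neighbouring lists were picked from their calls.

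Deviations from group means of same-numbered libraries correlated at 0.12 to 0.26 in all 9 marrow pairs and at 0.00 to 0.09 between spleen and marrow. Libraries with different numbers were not correlated, and the third marrow replicates are also those over 6000000 counts. Whether replicate numbers mark true pairs is therefore not known, and a fit with the replicate number as a block was an alternative. Annotation came from GENCODE M21 (GRCm38), in which Atp5o had no unique match. Other alternatives were RLE scaling, totals alone, an iterated TMM scheme (DEGES), scaling without mitochondrial genes, no filter, DESeq2 1.42.0, each library left out and a term for totals over 6000000. The study's own package, TCC, was not used here.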

Additional observations from a re-analysis of the deposited data

How the results depend on the processing

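No called named gene turned its direction under the alternatives, nor did a median except that of the nuclear members between BaPs and pre-basophils (-0.01 to 0.19 without single libraries), and the 4-group counts stayed within 1.5 times (59 to 72 nuclear and 12 to 13 mitochondrial members without single libraries). The cause of the changes below was not tested, and calls over all tested genes changed between these fits too. Between BaPs and pre-basophils the nuclear count of 1 became 10 with library size alone, 4 without a filter, 2 with DESeq2, 4 with a replicate block, 4 with the block in marrow libraries alone and 4 with a term for totals over 6000000, and 0 to 7 without single libraries. The mitochondrial count of 1 became 4, 7 and 2 with library size alone, no filter and DESeq2, and 0 to 3 without single libraries. Between pre-basophils and BM mature basophils the replicate block called 50 nuclear members (44 shared with the 45), and single libraries left out gave 28 to 54, and 0 to 4 mitochondrial. Between tissues the nuclear count of 12 became 5 with library size alone, 3 with the term for totals, 15 with the replicate block and 2 to 20 without single libraries. The mitochondrial count of 2 became 7 without a filter and 4 with DESeq2, the marrow block or the term for totals, and 1 to 10 without single libraries. With library size alone the nuclear medians moved to 0.27, 0.66 and -0.083 and the mitochondrial ones to 0.51 (pre-basophil against BM mature) and -0.33 (spleen), and the term for totals gave -0.62 in the spleen. The replicate block changed no other call of a named gene than the 3 given above. The marrow block and the term for totals were chosen after the data were seen. With 3 libraries a group, the smallest nuclear difference called was 0.34 on the log2 scale.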
